A study of Mus musculus with 12 samples.

Results

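The 10 genes described here encode the IL-2 receptor chains (*Il2ra*, *Il2rb* and *Il2rg*), the Janus kinases bound to them (*Jak1* and *Jak3*), the STAT5 transcription factors (*Stat5a* and *Stat5b*) and the feedback inhibitors of the CIS and SOCS family (*Cish*, *Socs2* and *Socs3*). They form a list of names, set by their place in the pathway, and were chosen with earlier results of these data known. No measured value enters the rule that picks their probe sets beyond mean brightness. Every probe set annotated to a listed gene alone was used, and a gene was represented by its brightest one, averaged over the 12 arrays. This gave 22 probe sets for 9 of the 10 genes, out of 18193 genes measured. *Il2rg* was not analysed here, because the probe annotation used pairs no probe set with it.

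Signals were measured in mouse cytotoxic T lymphocytes (CTL) of the C57BL/6 background, with 3 arrays in each of 4 groups. Spleen T cells were first stimulated through CD3 for 48 hr (antibody at 0.5 μg/ml), and the CTL were then cultured for 5 days with IL-2 at 20 ng/ml. *Pdpk1*-null CTL came from 3 PDK1fl/fl TamoxCre mice, and Cre control CTL came from 3 TamoxCre mice with unmodified *Pdpk1*. Both of these groups carried the tamoxifen-responsive Cre in the ROSA26 locus, which is active in most cell types, and both received 0.6 μM 4OHT, a form of tamoxifen, for the last 72 hr. The Akt experiment was separate, with cultures from 3 wild-type mice divided in 2, and for these the study also names IL-2 during the stimulation. The AktI group received 1 μM AktI-1/2, an inhibitor of Akt, for the last 48 hr, while the other group stayed in IL-2 alone. All 4 groups were in IL-2 when RNA was taken, so no array gives a level without IL-2.

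IL-2 binds a receptor of an α chain (CD25, from *Il2ra*), which raises affinity, a β chain (CD122, from *Il2rb*) and the common γ chain (from *Il2rg*), which the receptors for IL-4, IL-7, IL-9, IL-15 and IL-21 also use. JAK1 on the β chain and JAK3 on the γ chain phosphorylate STAT5A and STAT5B, which bind DNA as pairs and switch on target genes, *Il2ra* and *Cish* among them. CIS and the SOCS proteins are made in response to such signals and dampen them, by blocking receptor sites or kinases or by marking them for degradation. The receptor also activates PI3K and, through the kinase PDK1 (from *Pdpk1*), Akt. The comparisons asked what loss of *Pdpk1* or inhibition of Akt does to transcripts of the receptor and its STAT5 branch in CTL that still receive IL-2.

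The promoters of these genes were searched for the STAT motif TTCNNNGAA, which reads the same on both strands. RefSeq windows of 300 bases (GRCm38.p6, 250 bases before to 50 after a start site) were found for 8 of the 10 genes, and none for *Il2rb* and *Socs2*. Of their 10 windows, 2 hold the motif, against 8.3% of all 32851 windows. The motif stretches of *Cish* and *Socs3* are shown because they are the only member windows with a match, with the matches in capitals. The *Cish* stretch is chr9:107296579-107296678 on the plus strand, and the *Socs3* stretch is chr11:117969467-117969566, read 5′ to 3′ on the minus strand.
*Cish*: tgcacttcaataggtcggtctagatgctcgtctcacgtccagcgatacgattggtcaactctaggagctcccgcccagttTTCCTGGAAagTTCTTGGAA
*Socs3*: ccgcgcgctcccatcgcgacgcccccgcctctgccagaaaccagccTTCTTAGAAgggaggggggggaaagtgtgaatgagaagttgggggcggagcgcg
The *Cish* matches begin at base 1 and base 12, counted from the start site, and 0.457% of all windows hold 2 or more matches. The *Socs3* match begins at base -154. A match is a description of the letters and not a measured binding site.

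Values below are log2 signals, in which a difference of 1 is a doubling. Array medians lay between 4.60 and 4.62 in the *Pdpk1* experiment and between 5.10 and 5.14 in the Akt experiment, so each experiment appears to have been normalized on its own, and only effects were set side by side across them. Arrays of a group correlated with r of 0.996 to 0.998 across probe sets. A background level was set for each experiment from 80 probe sets for olfactory or vomeronasal receptors, which T cells are not expected to express, as their 95th percentile, at 4.45 for *Pdpk1* and 4.99 for Akt. *Pdpk1* itself had 9.05, 8.95 and 9.09 in *Pdpk1*-null CTL, against 8.96, 9.03 and 8.96 in Cre control CTL (log2 fold change 0.05, SE 0.0693, adjusted p = 0.822). The second probe set changed by -0.04 on the log2 scale (adjusted p = 0.853). It is not known here whether either probe set lies in the deleted part, so these values do not test the genotype. The study itself reports the deletion in CTL made in this way, from immunoblots of PDK1 protein. Of the 6 T cell markers listed, 5 were measured and all 5 were above background in every group, *Cd8a* at 11.23 to 11.64 over the 12 arrays. In the list for CD4 T cells and regulatory T cells, *Foxp3* was below background in every group. The other 3 of its 4 genes, *Cd4*, *Ikzf4* and *Zbtb7b*, were above background in every group, with *Cd4* means of 6.52, 6.65, 6.87 and 6.92 in *Pdpk1*-null, Cre control, AktI and IL-2 alone CTL. In bulk RNA such as this, fewer cells of a type and less RNA per cell cannot be told apart.

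A change passed when the adjusted p from limma was under 0.05 and the fold change was at least 1.5, and "rose" and "fell" are used only of such changes. The precision is limited by the 3 arrays per group. All 9 genes were above background in all 4 groups.

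Loss of *Pdpk1* raised *Socs3* and left the other 8 genes short of the test. *Socs3* rose 1.78-fold. The receptor chains *Il2ra* and *Il2rb* had lower signals on every *Pdpk1*-null array than on any Cre control array, by 1.34-fold and 1.29-fold, without passing. With AktI, *Socs2* rose 1.93-fold and *Socs3* rose 1.80-fold, and the other 7 genes did not pass. Of all 18193 genes, 1.36% passed after *Pdpk1* deletion and 2.53% with AktI, or 1.01% and 1.51% counting rises and 0.357% and 1.03% counting falls. No member fell in either comparison by the limma test. At an unadjusted p under 0.05 there were 3 members after deletion (1 higher and 2 lower) and 3 with AktI (2 higher and 1 lower), where 17.3% and 20.3% of all genes had such a p in either direction. The median log2 fold change of the 9 genes was 0.14 after deletion and 0.09 with AktI, against -0.01 and -0.02 over all genes. The groups did not overlap for 4 of the 9 genes after deletion and for 5 of 9 with AktI, against 24.7% and 27.4% of all genes. Because the members were chosen with earlier results of these data known, these shares describe the list and do not test it.

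**Figure D1:**
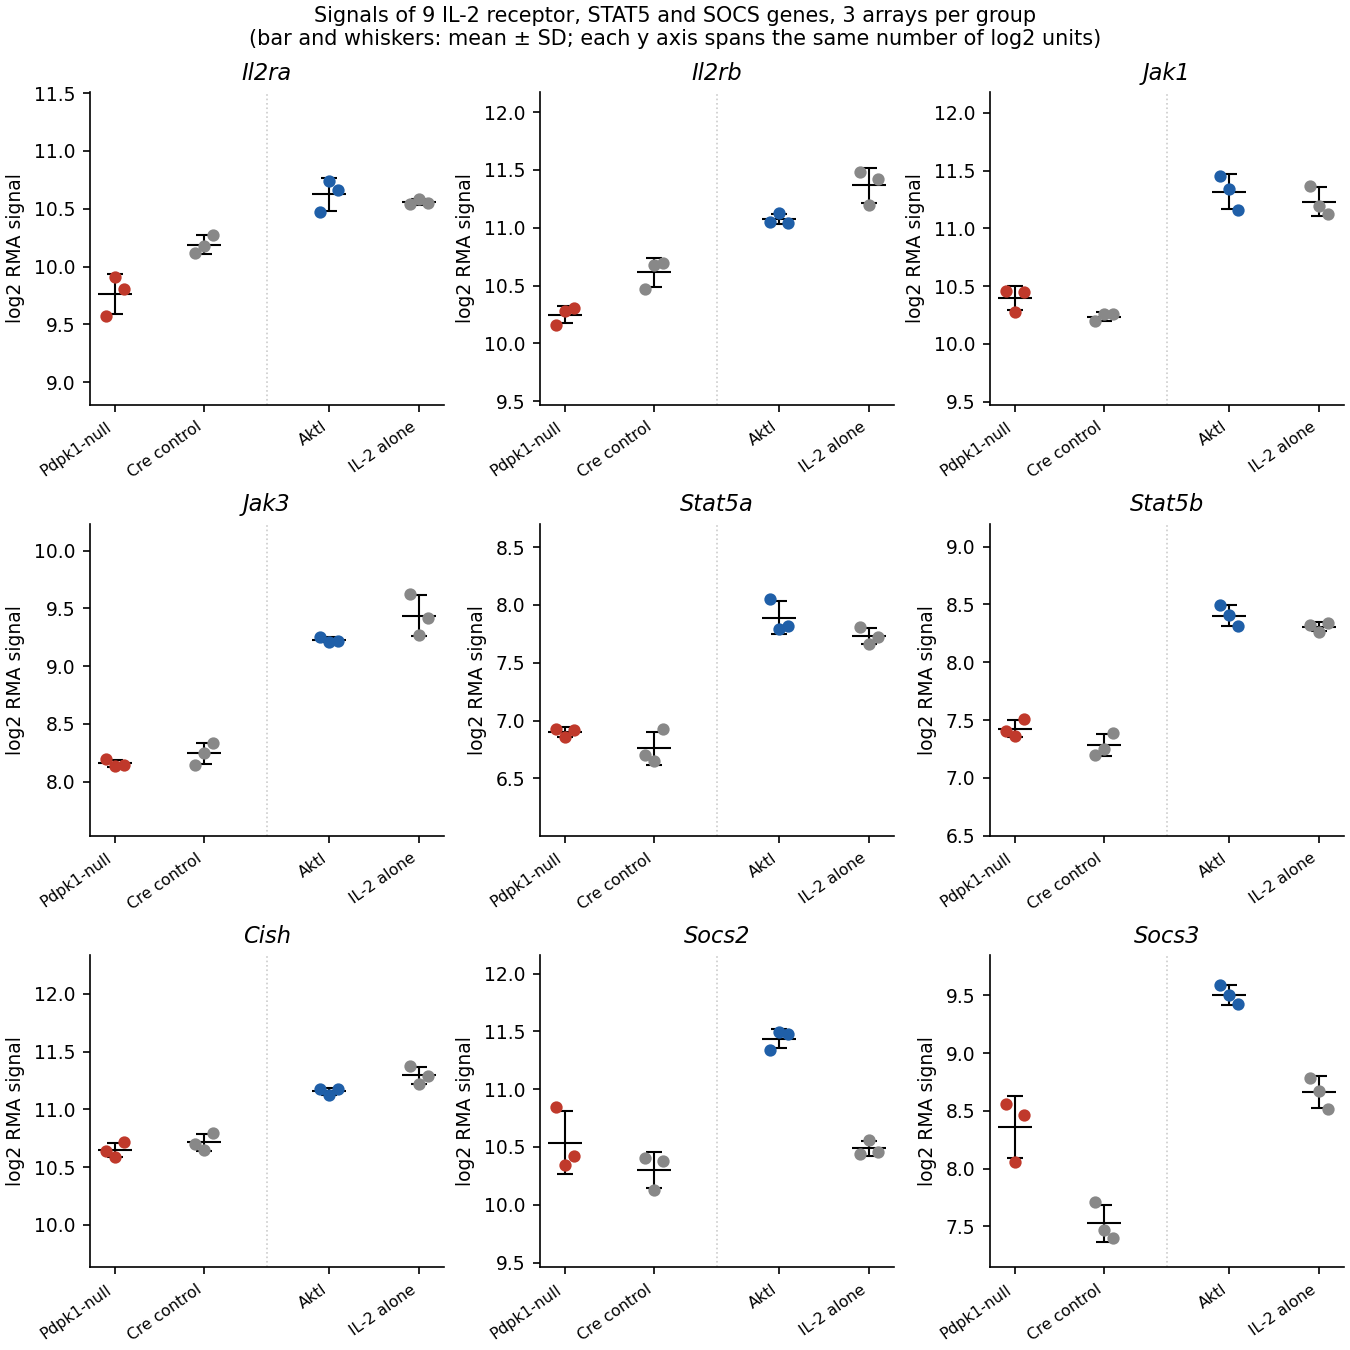
Log2 RMA signal (y axis) of each of the 9 measured genes on each array, in *Pdpk1*-null, Cre control, AktI and IL-2 alone CTL (x axis), with the mean and SD of 3 arrays. *Socs3* lies above its control in both experiments, *Socs2* only with AktI does so on every array, and *Il2ra* and *Il2rb* lie below Cre control on each *Pdpk1*-null array; the experiments appear to have been normalized separately, so heights are compared only within each.

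*Il2ra* encodes CD25, the chain that gives the receptor its high affinity. Its signal was 9.57, 9.91 and 9.81 in *Pdpk1*-null CTL, against 10.12, 10.17 and 10.28 in Cre control CTL. Every *Pdpk1*-null array was below every Cre control array, and the mean was 1.34-fold lower. The log2 fold change of -0.43 (SE 0.0983, 95% interval -0.65 to -0.20) did not pass, by the fold minimum and by the adjusted p of 0.0774. The other *Il2ra* probe set also separated the groups, with 9.42, 9.59 and 9.42 in *Pdpk1*-null CTL against 9.80, 9.78 and 9.97 in Cre control CTL (log2 fold change -0.37, adjusted p = 0.0717).

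With AktI the 2 *Il2ra* probe sets gave different answers. The brighter had 10.47, 10.74 and 10.66 with AktI, against 10.54, 10.59 and 10.55 in IL-2 alone, and these groups overlapped (log2 fold change 0.07, 95% interval -0.12 to 0.25, adjusted p = 0.759). The other had 10.88, 10.82 and 10.83 with AktI, against 10.40, 10.31 and 10.29 in IL-2 alone. Here every AktI array was higher, and the log2 fold change of 0.51 (SE 0.0646, adjusted p = 0.00309) corresponds to 1.43-fold and so missed only the fold minimum. Which part of the transcript each probe set reads was not examined here.

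The effects of *Pdpk1* deletion and of AktI were compared in a model of all 12 arrays, in which the difference is the *Pdpk1* effect minus the AktI effect. The experiments were separate, with different mice, treatments and treatment times. A difference between PDK1 and Akt therefore cannot be told apart from a difference between the experiments. By this limma test 0 of the 9 genes had effects that differed, against 0.522% of all genes, and 2 (*Il2ra* and *Socs2*) had an unadjusted p under 0.05, against 11.1% of all genes. For *Il2ra* the brighter probe set gave -0.49 (95% interval -0.78 to -0.21, adjusted p = 0.162). The other gave -0.89 (SE 0.104, 95% interval -1.11 to -0.66, adjusted p = 0.00136) and passed, and it was the only probe set of the 22 to do so, against 0.395% of all probe sets. On that probe set the signal was lower after deletion and higher with AktI on every array than on any array of its control. Because the brighter probe set represents the gene, *Il2ra* itself is not counted among genes whose effects differed.

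*Il2rb* encodes CD122, which carries the signal of both IL-2 and IL-15. Its signal was 10.16, 10.28 and 10.30 in *Pdpk1*-null CTL, against 10.47, 10.68 and 10.70 in Cre control CTL. It was 11.05, 11.13 and 11.04 with AktI, against 11.48, 11.20 and 11.42 in IL-2 alone. In both experiments all 3 arrays were below all 3 controls. The log2 fold changes were -0.37 (SE 0.0855, adjusted p = 0.0806) after deletion and -0.29 (SE 0.0857, adjusted p = 0.107) with AktI, and neither passed. Its second probe set gave -0.36 (adjusted p = 0.0999) and -0.26 (adjusted p = 0.129). The effects differed by -0.08 (95% interval -0.34 to 0.19, adjusted p = 0.895).

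*Jak1*, the kinase on the β chain, had 10.46, 10.28 and 10.45 in *Pdpk1*-null CTL, against 10.19, 10.26 and 10.26 in Cre control CTL. All 3 *Pdpk1*-null arrays were higher, but by a log2 fold change of only 0.16 (95% interval -0.01 to 0.33, adjusted p = 0.374). With AktI it had 11.46, 11.34 and 11.16, against 11.37, 11.20 and 11.12 in IL-2 alone (0.09, 95% interval -0.13 to 0.31, adjusted p = 0.719). Its other 2 probe sets gave 0.08 and 0.15 after deletion and 0.09 and 0.03 with AktI, with none passing.

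*Jak3*, the kinase on the common γ chain, had 8.20, 8.14 and 8.15 in *Pdpk1*-null CTL, against 8.15, 8.25 and 8.34 in Cre control CTL, and the groups overlapped (log2 fold change -0.09, 95% interval -0.25 to 0.08, adjusted p = 0.657). With AktI it had 9.25, 9.21 and 9.22, against 9.63, 9.27 and 9.42 in IL-2 alone. All AktI arrays were lower, most narrowly against IL-2 alone replicate 2, and the log2 fold change of -0.21 did not pass (95% interval -0.42 to 0.00, adjusted p = 0.286). A further 2 probe sets are annotated to *Jak3* together with a neighbouring gene and were not used.

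*Stat5a* and *Stat5b* are neighbouring genes with very similar sequences, so their probe sets may share signal. *Stat5a* had 6.93, 6.85 and 6.92 in *Pdpk1*-null CTL, against 6.71, 6.65 and 6.92 in Cre control CTL (log2 fold change 0.14, adjusted p = 0.503). *Stat5b* had 7.41, 7.36 and 7.51 in *Pdpk1*-null CTL, against 7.20, 7.25 and 7.39 in Cre control CTL (0.14, adjusted p = 0.446). Both pairs of groups overlapped. With AktI, *Stat5a* had 8.05, 7.79 and 7.82, against 7.81, 7.67 and 7.73 in IL-2 alone (0.16, adjusted p = 0.417). *Stat5b* had 8.49, 8.41 and 8.31 with AktI, against 8.33, 8.26 and 8.34 in IL-2 alone (0.10, adjusted p = 0.562). The 95% intervals reached no further than -0.07 and 0.35 for these 4 values, within the 1.5-fold minimum on either side. The second probe sets of *Stat5a* and *Stat5b* gave 0.08 and 0.11 after deletion and 0.00 and -0.05 with AktI, with none passing.

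**Figure D2:**
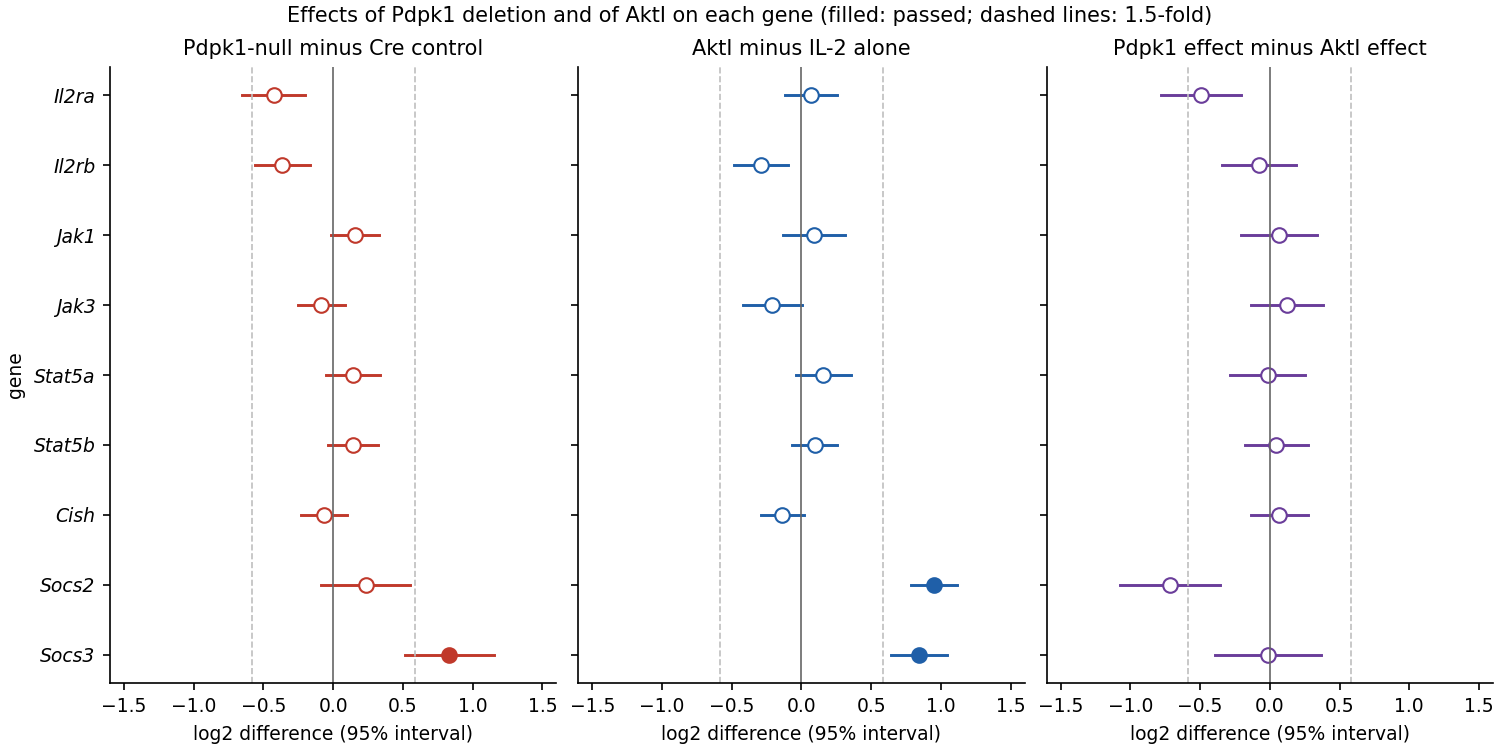
Log2 differences with 95% intervals (x axis) for each gene (y axis), for *Pdpk1*-null minus Cre control, AktI minus IL-2 alone, and the *Pdpk1* effect minus the AktI effect. Filled points passed: *Socs3* at 0.83 and 0.84 and *Socs2* at 0.95 with AktI. No point of the third panel passed, with *Socs2* at -0.72 and *Il2ra* at -0.49 farthest from 0.

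The 3 inhibitors did not move together. *Cish*, which encodes CIS, is a classical target of STAT5, and its window holds 2 of the motifs printed above. Its signal was 10.64, 10.59 and 10.71 in *Pdpk1*-null CTL, against 10.70, 10.65 and 10.80 in Cre control CTL, and the groups overlapped. With AktI it was 11.17, 11.12 and 11.18, against 11.37, 11.22 and 11.29 in IL-2 alone, lower on every array by a small margin. The log2 fold changes were -0.07 (95% interval -0.23 to 0.10, adjusted p = 0.734) and -0.14 (95% interval -0.29 to 0.02, adjusted p = 0.345). These intervals lie inside the 1.5-fold minimum in both directions.

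*Socs2*, an inhibitor best known for limiting growth hormone signals through STAT5, had 11.34, 11.49 and 11.48 with AktI, against 10.44, 10.56 and 10.46 in IL-2 alone. The mean was 11.44 ± 0.08 with AktI and 10.49 ± 0.07 in IL-2 alone (SD, n = 3 each). The groups were far apart relative to their spread, and *Socs2* rose 1.93-fold (log2 fold change 0.95, SE 0.0724, adjusted p = 0.00026). Within each mouse the difference was 0.90, 0.93 and 1.02. By absolute log2 fold change *Socs2* stood 174th of the 18193 genes.

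After *Pdpk1* deletion *Socs2* had 10.85, 10.34 and 10.42, against 10.40, 10.12 and 10.38 in Cre control CTL. *Pdpk1*-null replicate 1 was the highest of the 6 arrays and the groups overlapped, so the log2 fold change of 0.23 (SE 0.139, 95% interval -0.08 to 0.55, adjusted p = 0.493) did not pass. The *Pdpk1* effect was 0.72 below the AktI effect (difference -0.72, SE 0.167, 95% interval -1.08 to -0.35), which missed the threshold at an adjusted p of 0.104. With a replicate block, which pairs AktI and IL-2 alone cultures of the same mouse but also *Pdpk1*-null and Cre control arrays that share only a number, the difference passed at an adjusted p of 0.0493. Without *Pdpk1*-null replicate 1 it was -0.87 and passed (adjusted p = 0.0079).

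Of the 6 *Socs2* probe sets, 4 rose with AktI and none passed after deletion. The second brightest had 10.39, 10.50 and 10.55 with AktI, against 9.39, 9.63 and 9.47 in IL-2 alone (log2 fold change 0.98, adjusted p = 0.000481). The others that rose gave 0.72 (adjusted p = 0.00126) and 0.64 (adjusted p = 0.0108), the last value from a probe set below background in every group, so that its size is not exact. The remaining 2 gave 0.05 and 0.13, of which the one at 0.13 was also below background in every group. The mean over all 6 probe sets was 0.58 (adjusted p = 0.00113), just under the fold minimum.

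*Socs3*, which encodes an inhibitor of JAK kinases known mainly for restraining signals of IL-6 type cytokines through STAT3, was the only member that passed in both comparisons. It had 8.56, 8.06 and 8.46 in *Pdpk1*-null CTL, against 7.71, 7.47 and 7.40 in Cre control CTL. The lowest *Pdpk1*-null array, replicate 2, was still above the highest control. The mean was 8.36 ± 0.27 in *Pdpk1*-null CTL and 7.53 ± 0.16 in Cre control CTL (SD, n = 3 each), and *Socs3* rose 1.78-fold (log2 fold change 0.83, SE 0.139, adjusted p = 0.0271). It stood 153rd of 18193 genes by absolute log2 fold change. With 1 array left out, the call held only without *Pdpk1*-null replicate 2 (adjusted p = 0.00756). Without any other single array the adjusted p was 0.0528 to 0.116, and the log2 fold change stayed between 0.73 and 0.92.

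With AktI, *Socs3* had 9.59, 9.50 and 9.42, against 8.79, 8.68 and 8.51 in IL-2 alone. The groups did not overlap, and *Socs3* rose 1.80-fold (log2 fold change 0.84, SE 0.0874, adjusted p = 0.00122), by 0.80, 0.82 and 0.91 within the 3 mice. It stood 239th by absolute log2 fold change. The *Pdpk1* and AktI effects differed by -0.01, and the 95% interval of -0.39 to 0.37 shows how large a difference these arrays leave possible (adjusted p = 0.992).

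The probe set that represents *Socs3* is of a type whose probes can also match other transcripts (an _x_at set), as is the second brightest. The second had 7.31, 6.63 and 6.95 in *Pdpk1*-null CTL, against 6.10, 6.07 and 6.20 in Cre control CTL (log2 fold change 0.84, adjusted p = 0.0345). With AktI it rose by 0.99 (adjusted p = 0.000964). The third is of the gene-specific type, and after deletion it had 6.96, 6.69 and 6.99, against 6.45, 6.26 and 6.36 in Cre control CTL. Its log2 fold change of 0.52 (adjusted p = 0.0423), or 1.43-fold, missed the fold minimum. With AktI the same probe set rose by 0.62 (adjusted p = 0.00834). All 3 probe sets were higher on every *Pdpk1*-null and every AktI array than on any array of their control. Counted over the 22 probe sets of the members, 2 rose after deletion and 7 with AktI, against 1.02% and 1.94% of all probe sets called in either direction.

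**Figure D3:**
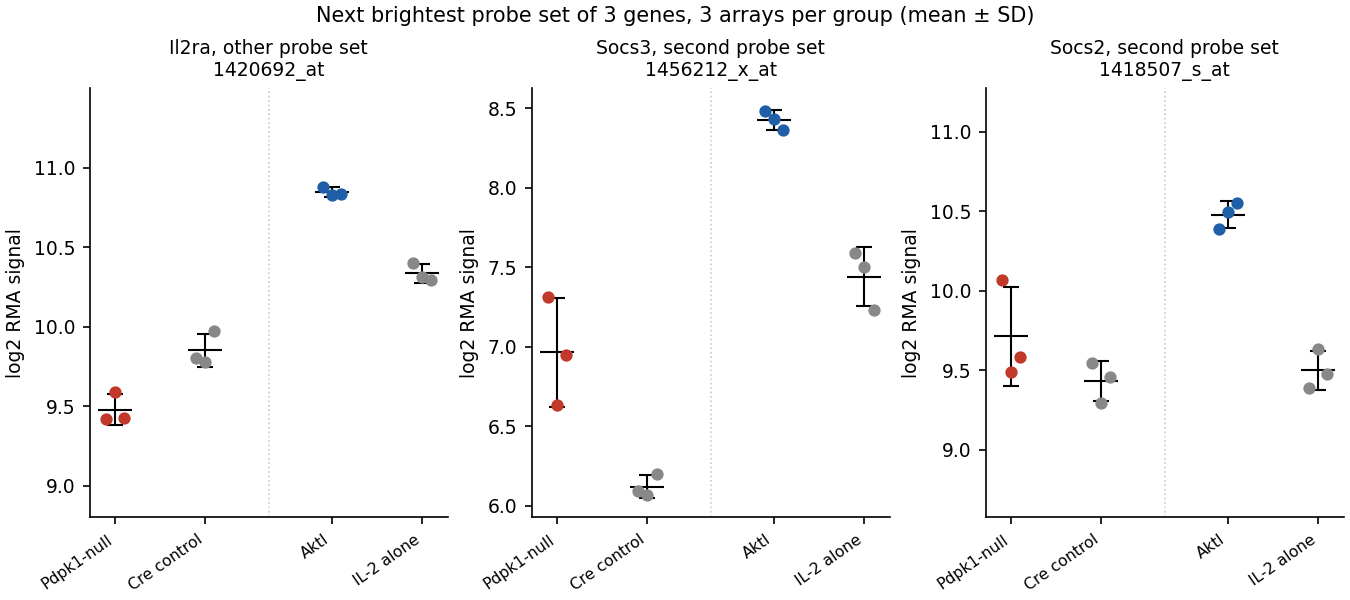
Log2 RMA signal (y axis) of the next brightest probe set of *Il2ra*, *Socs3* and *Socs2* on each array of the 4 groups (x axis), with the mean and SD of 3 arrays. The *Il2ra* probe set is lower in *Pdpk1*-null CTL (9.42 to 9.59) than in Cre control CTL (9.78 to 9.97) and higher with AktI (10.82 to 10.88) than in IL-2 alone (10.29 to 10.40).

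Some genes from the marker lists of other cells differed beside the AktI results. In the monocyte and macrophage list, 5 of 6 genes were measured and 3 of these (*Lyz2*, *Adgre1* and *Cd14*) were below background in both groups, and the summed linear signal was 219 to 240 with AktI and 308 to 394 in IL-2 alone. *Cd68*, a lysosomal protein abundant in macrophages, fell (log2 fold change -1.30, adjusted p = 0.00563). *Csf1r*, the other measured gene above background, had -0.045 (adjusted p = 0.812), and its groups overlapped. In the mast cell and basophil list (5 of 6 measured, 4 below background in each group, among them *Cpa3*, *Fcer1a* and *Ms4a2*) the sums overlapped, at 103 to 122 with AktI and 118 to 172 in IL-2 alone. The median log2 fold change of the list was 0.02. *Kit* had 0.31 without passing, and *Mcpt8*, a basophil protease, fell (-1.09, adjusted p = 0.0465) to a mean below background. That call was lost without any of 5 single arrays (adjusted p of 0.0816 to 0.139). In the B cell list (7 of 8 measured, *Ms4a1* and *Ebf1* below background) the sums overlapped, at 1764 to 3322 with AktI and 2574 to 5346 in IL-2 alone. These sums mostly read *Ighm*, the brightest gene of the list (-0.57, adjusted p = 0.411). Within each mouse *Ighm* was lower with AktI (-0.61, -0.74 and -0.36). *Cd79b* was higher within each mouse (0.28, 0.52 and 0.23), without passing (0.34, adjusted p = 0.0721). The groups overlapped for *Cd79a*, *Pax5* and *Cd22*. The NK cell sums (3 of 4 measured, 2 below background) did not overlap, at 2780 to 2981 with AktI and 3736 to 4057 in IL-2 alone. Only *Eomes* of that list was above background, so the sums mostly read *Eomes*, which activated CD8 T cells also express. *Eomes* had a log2 fold change of -0.44 (adjusted p = 0.00883, below the fold minimum). *Ncr1* and *Klra8*, both below background, had 0.11 and 0.14 without passing. The T cell sums did not overlap either, at 16363 to 16603 with AktI and 14034 to 15634 in IL-2 alone, and *Cd8b1* had 0.50 (adjusted p = 0.0035, below the fold minimum). After deletion, *Cd2* of the T cell list rose (0.67, adjusted p = 0.0151). That call was lost without any of 4 single arrays. For 3 of them the adjusted p was 0.0536 to 0.0582. Without Cre control replicate 2 the log2 fold change was 0.58, just under the fold minimum. The B cell sums were 824 to 1148 in *Pdpk1*-null CTL and 656 to 821 in Cre control CTL. They again mostly read *Ighm*, which did not pass (0.36, adjusted p = 0.35). *Cd79b* had 0.19 and *Pax5* had -0.18, neither passing. The part of these shifts in the results for *Socs2*, *Socs3*, *Il2ra* and *Il2rb* was not tested.

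The wider pathway was followed in 7 further lists with 57 genes, of which 55 were analysed here. After *Pdpk1* deletion 3 of the 55 rose and none fell, and with AktI 3 rose and 2 fell. Of all genes, 1.36% passed after deletion and 2.53% with AktI, in either direction. By limma, no further list gene fell after deletion. *Il7r*, *Stat4* and *Pim2* rose in both comparisons.

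Among the ligands of receptors with the common γ chain, 6 of 6 genes were measured, and none passed in either comparison. Only 2 were above background in the *Pdpk1* experiment and 1 in the Akt experiment. *Il4* had a log2 fold change of 0.53 (adjusted p = 0.246) after deletion and of 0.39 (adjusted p = 0.0441) with AktI, where it was below background in both groups. *Il7* was below background in every group (-0.12 and -0.05).

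Among the 5 other receptor chains of this family, *Il7r* rose in both comparisons and the other 4 did not pass. *Il7r* encodes the chain that binds IL-7, a cytokine that keeps naive and memory T cells alive. It had 9.32, 9.31 and 9.28 in *Pdpk1*-null CTL, against 8.08, 7.47 and 8.25 in Cre control CTL, a 2.58-fold rise (log2 fold change 1.37, SE 0.176, adjusted p = 0.0107). With AktI it had 9.04, 8.90 and 9.22, against 7.93, 7.81 and 8.09 in IL-2 alone, a 2.16-fold rise (1.11, SE 0.104, adjusted p = 0.000718). Neither pair of groups overlapped, and the effects differed by 0.26 (adjusted p = 0.763). Without *Pdpk1*-null replicate 3 the call after deletion was lost (adjusted p = 0.0518).

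Among the 6 other Janus kinases and STAT factors analysed here, *Stat4* rose in both comparisons. STAT4 carries signals of IL-12. It had 10.30, 9.82 and 10.12 in *Pdpk1*-null CTL, against 9.35, 9.34 and 9.35 in Cre control CTL (log2 fold change 0.73, SE 0.115, adjusted p = 0.0213). With AktI it had 10.90, 10.77 and 10.77, against 10.13, 9.94 and 9.75 in IL-2 alone (0.87, SE 0.1, adjusted p = 0.00197). All arrays of the treated or deleted group were higher in each case. After deletion the call held only without *Pdpk1*-null replicate 2, and without any other single array the adjusted p was 0.0518 to 0.0895.

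The 5 other SOCS genes, the 10 phosphatases and other brakes of the pathway and the 9 measured adaptors and kinases that lead to Ras and PI3K held no gene that passed in either comparison by limma. At an unadjusted p under 0.05 these lists had 2, 1 and 1 genes after deletion and 2, 0 and 4 with AktI. Of all genes, 17.3% and 20.3% had such a p. *Socs1*, an inhibitor of JAK kinases, had log2 fold changes of -0.07 (adjusted p = 0.833) after deletion and -0.38 (adjusted p = 0.0762) with AktI, and *Socs6* had -0.27 (adjusted p = 0.165) and -0.18 (adjusted p = 0.191). Of the brakes, *Ptpn6*, the phosphatase SHP-1, had -0.21 and 0.02, and *Cbl*, a ubiquitin ligase, had -0.19 and -0.09. Of the adaptors, *Grb2* had -0.14 (adjusted p = 0.488) and -0.30 (adjusted p = 0.0269, below the fold minimum), and *Sos1*, which loads Ras with GTP, had 0.00 and 0.28.

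All 14 genes listed as STAT5 targets in T cells were measured. After deletion 1 rose and none fell, and with AktI 1 rose and 2 fell, where 1.36% and 2.53% of all genes passed in either direction. Their median log2 fold change was -0.05 after deletion and -0.28 with AktI, against -0.01 and -0.02 over all genes. *Pim2*, a kinase that promotes survival, had 11.15, 10.44 and 11.01 in *Pdpk1*-null CTL, against 9.85, 9.75 and 9.86 in Cre control CTL (log2 fold change 1.05, SE 0.165, adjusted p = 0.0217), with no overlap. With AktI it had 12.22, 12.42 and 12.34, against 10.58, 10.66 and 10.04 in IL-2 alone, a 3.73-fold rise (1.90, SE 0.151, adjusted p = 0.000329). After deletion the call held only without *Pdpk1*-null replicate 2, and without any other single array the adjusted p was 0.0576 to 0.0922.

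The 2 targets that fell with AktI were *Prf1* and *Prdm1*. *Prf1*, which encodes the pore-forming protein perforin, had 9.94, 9.74 and 10.16 with AktI, against 12.24, 11.85 and 12.36 in IL-2 alone, a 4.61-fold fall (log2 fold change -2.20, SE 0.147, adjusted p = 0.000164). In *Pdpk1*-null CTL it had 10.89, 11.64 and 11.47, against 11.82, 12.28 and 11.92 in Cre control CTL (-0.67, SE 0.194, adjusted p = 0.14). The difference of the effects was 1.53 (SE 0.27, adjusted p = 0.026), which means a smaller decrease after deletion than with AktI, and this call was lost without any of 8 single arrays (adjusted p of 0.0573 to 0.0846). *Prdm1*, which encodes the transcription factor Blimp-1, fell with AktI (-0.70, SE 0.0701, adjusted p = 0.00104) and had -0.64 (SE 0.194, adjusted p = 0.16) after deletion.

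**Figure D4:**
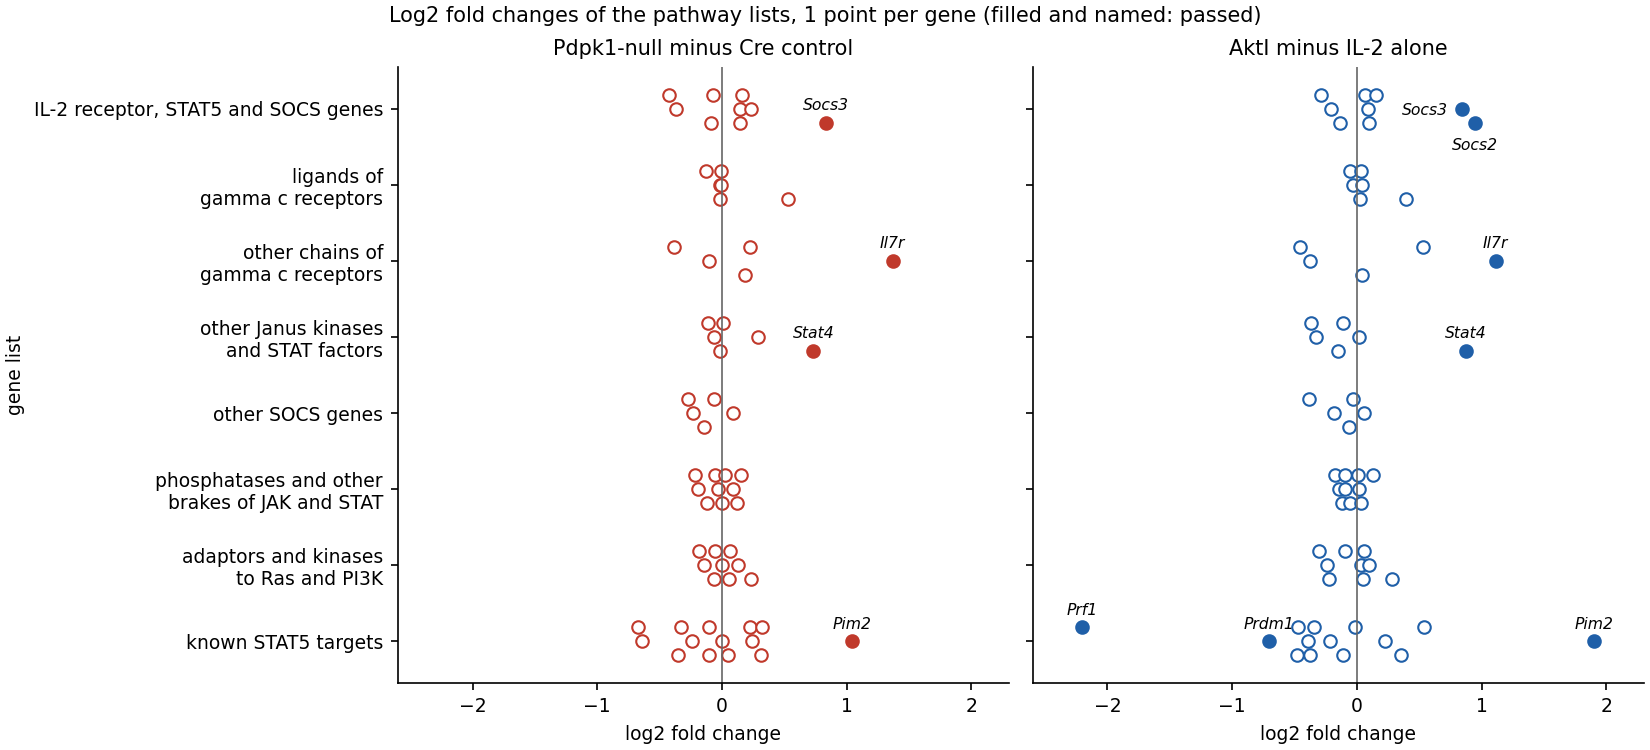
Log2 fold change (x axis) of each measured gene of the 8 lists (y axis), for *Pdpk1*-null minus Cre control and AktI minus IL-2 alone CTL, with genes that passed filled and named. *Socs3*, *Il7r*, *Stat4* and *Pim2* are the filled points on the left, and the same genes with *Socs2*, *Prf1* and *Prdm1* are those on the right.

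The genes whose signals were most like those of *Socs2* and *Socs3* were sought among 12389 other genes above background, by Pearson's r over the 12 arrays after the mean of each experiment was taken off. The 12 points share their groups, so r mostly reads the same group effects. For *Socs2* the closest were *Rgs10* (r = 0.98), *Slc35g1* (r = 0.98) and *Dtd1* (r = 0.97). Like *Socs2*, these 3 had larger log2 fold changes with AktI (1.12, 0.75 and 0.53) than after deletion (0.48, 0.23 and 0.14). For *Socs3* the closest were *Bbip1*, *Rapgef6* and *Arhgap25* (r = 0.99 each). *Bbip1* rose by 0.96 (adjusted p = 0.0306) after deletion and by 1.21 (adjusted p = 0.000259) with AktI. *Rapgef6* had 0.60 and 0.58 and *Arhgap25* had 0.53 and 0.57, of which only the 0.60 passed.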

How the data were processed

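RNA of 12 CTL cultures was hybridized to Affymetrix mouse arrays. The authors deposited log2 signals made by robust multichip averaging (RMA) in Affymetrix Expression Console 1.1, and these were used as deposited. Of 45101 probe sets, 64 controls were left out. Of the 45037 tested, 34945 name 1 gene, 932 several and 9160 none in the annotation used.

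Each comparison was fitted on its own 6 arrays with limma 3.58.1 in R 4.3.3 (lmFit and eBayes, no covariate), with Benjamini-Hochberg adjustment over all tested probe sets. The difference of the effects is a contrast in a model of all 12 arrays. The significance analysis of microarrays (SAM) used in the study rests on relabelling arrays and was not run here. For a probe set taken on its own, a permutation of 3 against 3 arrays cannot give a p below 0.1. The study set its SAM calls by a false discovery rate, which is another measure. Marker sums add linear signals. On simulated data the script was tested for recovery of known changes.

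The members and lists were chosen with earlier results of these data known. Named genes are the members, from each list up to 4 passing genes ranked by size of change (where none passed, the top 2), and for each member that passed the 3 genes most like it. Markers were fixed lists.

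AktI and IL-2 alone cultures of the same number come from the same mouse per the labels. After removal of group means they correlated with r of 0.0343 to 0.17, against -0.102 to 0.0383 for other pairs. *Pdpk1* replicates, from different mice, share only a number (-0.011 to 0.0496 against -0.074 to 0.041). Alternatives were other moderation, normalization, filters, fold minimums and rules for probe sets, a replicate block, 1 model over all arrays, and leaving out each array.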

Additional observations from a re-analysis of the deposited data

Results flagged for a closer look

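Differences between the *Pdpk1* and the AktI effect (log2, *Pdpk1* effect minus AktI effect) drew attention for 3 genes. They cannot be told apart from other differences between the 2 experiments. For the second *Il2ra* probe set the difference was -0.886 (adjusted p = 0.00136), with -0.37 after deletion and 0.51 with AktI. It still passed with trend and robust moderation, quantile normalization, equal array medians and a replicate block (adjusted p = 0.0156), and without any single array (0.00127 to 0.00691). For *Prf1* the difference was 1.53 (adjusted p = 0.026), with -0.67 after deletion and -2.20 with AktI. It was lost with trend and robust moderation (adjusted p = 0.085) and without any of 8 single arrays (0.0573 to 0.0846). For *Cd68*, a marker of the monocyte and macrophage list, the difference was 1.6065 (adjusted p = 0.0133), with 0.31 after deletion and -1.30 with AktI. The part of that marker in the results for the receptor, STAT5 and SOCS genes was not tested.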

How the results depend on the processing

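With 2-fold as the minimum, 0 members passed after deletion and 0 with AktI by limma. Leaving out 1 array gave 0 to 1 members after deletion (*Socs3* or none) and 2 with AktI, and for the difference of the effects 0 to 1 (*Socs2* without *Pdpk1*-null replicate 1). After deletion *Il2ra* and *Il2rb* stayed under the fold minimum throughout. Their adjusted p was 0.0217 and 0.0188 with trend and robust moderation, 0.0733 and 0.0713 with quantile normalization, and 0.233 and 0.237 without Cre control replicate 3. Averaging the probe sets of each gene gave 1 member with AktI (*Socs3*) and 1 for the difference (*Il2ra*, -0.69, adjusted p = 0.00656). Any probe set of a gene gave 1 for the difference (*Il2ra*), and the replicate block gave 1 (*Socs2*). Differences near 0 changed sign: *Stat5a* to 0.0048 and *Socs3* to 0.0073 with quantile normalization, *Stat5a* to 0.0330 with the mean of probe sets and 0.0803 with any probe set. Over single arrays left out, the difference ran from -0.1134 to 0.1408 for *Socs3*, -0.0691 to 0.0680 for *Stat5a*, -0.1491 to 0.0095 for *Il2rb* and -0.0104 to 0.1381 for *Jak1*. The block also changed the calls of *Prf1* after deletion (-0.67, adjusted p = 0.0431) and *Ighm* (difference 0.93, adjusted p = 0.0477). In the *Pdpk1* experiment it pairs different mice that share only a number.

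Of all genes, 248 passed after deletion, against 432 with no fold minimum, 76 at 2-fold and 98 to 328 without 1 array. With AktI 461 passed, against 1199 with no fold minimum and 151 at 2-fold. For the difference 95 passed, against 38 at 2-fold and 53 to 124 without 1 array. *Mcpt8* lost its call with trend and robust moderation (adjusted p = 0.0543) and without any of 5 single arrays (0.0816 to 0.139), and *Cd2* without any of 3 (0.0536 to 0.0582) and, by the fold minimum, without Cre control replicate 2 (0.58, adjusted p = 0.0457). The cause of these changes was not tested. With 3 arrays per group, small changes of dim probe sets are beyond reach.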
